A study of Mus musculus with 13 samples.

Results

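The Igf2bp RNA-binding proteins are encoded in the mouse by Igf2bp1, Igf2bp2 and Igf2bp3, and their transcripts were followed here across cell types, age and diet in the hippocampus. The 3 genes were matched by symbol among the 32285 genes of the count matrices. The family was selected on its measured values, because an earlier account of these same data gave Igf2bp3 as lower in old than in young mice in 3 cell classes. Values of the 3 genes in old against young mice are therefore given as a description, without a test. The comparisons of restricted with old AL mice use the same old AL values, the low arm of the contrast that led to the choice, so they are not independent of it and are tilted towards higher values under restriction. The fold between long-term and acute restriction does not use them, although its edgeR error does, since all 4 groups share 1 fit. The nuclei came from whole frozen hippocampus of 13 female mice of a C3B6F1 hybrid strain, which the sample labels spell C3HB6F1, with 1 single-nucleus RNA library per mouse. Young AL mice were 5 months old and fed ad libitum, meaning without limit (n = 3). Old AL mice were 24 months old and also fed ad libitum (n = 3). Acute DR mice were 24 months old and had been dietary restricted from 20 months (n = 3). Long-term DR mice were 24 months old and had been restricted from 5 months (n = 4).

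IGF2BP proteins, also called IMP or VICKZ proteins, bind messenger RNAs through RNA recognition and KH domains and affect where those RNAs go, how long they last and how they are translated. Igf2bp1, known in neurons as the zipcode-binding protein of beta-actin mRNA, and Igf2bp3 are known as genes of embryonic tissues and tumours. Igf2bp2 is known to persist in more adult tissues and has been tied to metabolism. All 3 proteins are described as readers of N6-methyladenosine (m6A) in RNA, and their own transcripts are known targets of the let-7 microRNAs, which accumulate as tissues mature.

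The 3 genes lie on the minus strand of separate chromosomes of GRCm38. Igf2bp1 (ENSMUSG00000013415) spans chr11:95957163-96005940, Igf2bp2 (ENSMUSG00000033581) spans chr16:22059009-22163299 and Igf2bp3 (ENSMUSG00000029814) spans chr6:49085223-49214957. The let-7 matches in their 3′ UTRs are shown because they are the sequence feature that the 3 transcripts share. The mature let-7 sequences come from RefSeq, and the capitals mark the seed, bases 2 to 8, which was the same in all 9 mature sequences of the family that were read.
mmu-let-7a-5p: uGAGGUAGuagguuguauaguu
mmu-let-7e-5p: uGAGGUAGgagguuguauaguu
mmu-miR-98-5p: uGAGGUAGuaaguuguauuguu
The complement of that seed, CTACCTC, was searched on the transcript strand of the annotated 3′ UTRs. Igf2bp1 held 4 matches in a UTR of 6337 bases, and Igf2bp2 and Igf2bp3 held 1 each in UTRs of 1784 and 2119 bases. Each line below gives the 15 bases before the match, the match in capitals and the base after it, read 5′ to 3′ on the transcript.
Igf2bp1 chr11:95961778-95961800: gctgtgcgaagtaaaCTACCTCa
Igf2bp1 chr11:95959357-95959379: cagcagtgctattaaCTACCTCa
Igf2bp1 chr11:95958763-95958785: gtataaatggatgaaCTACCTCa
Igf2bp1 chr11:95958140-95958162: acttttggttttaatCTACCTCt
Igf2bp2 chr16:22059473-22059495: acacacaaataaaagCTACCTCa
Igf2bp3 chr6:49086787-49086809: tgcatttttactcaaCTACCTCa
Among 20954 protein-coding genes, 9.06% had at least 1 such match. Among genes with UTRs of 0.8 to 1.25 times the member's length, 34.4% had a match for Igf2bp1, 12.1% for Igf2bp2 and 13.3% for Igf2bp3, and 0.331% had 4 or more for Igf2bp1. These matches describe the letters only. MicroRNAs themselves were not measured.

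The libraries held 38546292 to 80538090 UMIs (unique molecular identifiers, each counting 1 captured RNA molecule). After filters, 98041 nuclei remained, with a median of 3688 to 11195 UMIs per nucleus in a library. Any 2 libraries had at most 0.473% of their barcodes in common. Marker genes placed 78899 nuclei in 15 classes, which include the neurons of the dentate gyrus, CA1 and CA3 that define the hippocampus. A class is written as X-like because it rests on a marker list. The other 19142 nuclei lay in 14 unnamed clusters. Levels are given as UMIs per 1000000 UMIs (CPM), and the replicate is the mouse.

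The family was represented in these nuclei almost wholly by Igf2bp3. Igf2bp3 gave 48067 UMIs over all 98041 nuclei, against 537 for Igf2bp2 and 32 for Igf2bp1. Per kilobase of gene span, the levels were 0.562 CPM for Igf2bp3, 0.00781 CPM for Igf2bp2 and 0.000995 CPM for Igf2bp1. Libraries made from 3′ ends need not count in proportion to span, and the order was the same with and without that division. Igf2bp3 was detected in 34520 nuclei (35.2%), 10010 of which held 2 or more UMIs, with a maximum of 8 in 1 nucleus. The order of the 3 genes was the same in every library, since Igf2bp3 gave 1919 to 5626 UMIs per library, Igf2bp2 23 to 58 and Igf2bp1 0 to 5.

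**Figure D1:**
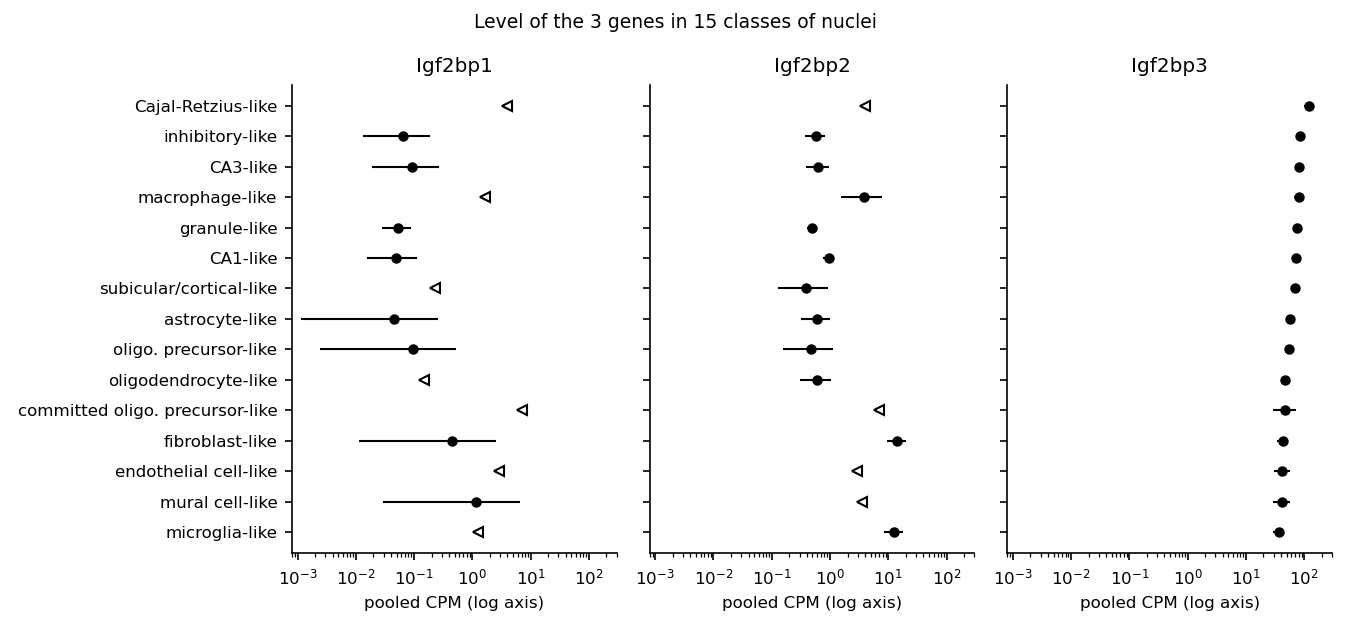
Level of each Igf2bp gene by cell class, as pooled UMIs per 1000000 UMIs on a log axis with 95% exact Poisson intervals, which cover counting error only; open triangles mark the limit that a count of 0 allows. Igf2bp3 had UMIs in 15 of 15 classes, from 36.5 in microglia-like to 121 in Cajal-Retzius neuron-like nuclei, while Igf2bp2 stood highest in fibroblast-like and microglia-like nuclei.

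Igf2bp3 had UMIs in every class, neuronal and glial. The pooled level ran from 36.5 CPM in microglia-like nuclei (95% exact Poisson interval 29.2 to 45.0) to 121 CPM in Cajal-Retzius neuron-like nuclei (97.4 to 148, 335 nuclei). The latter value came from few UMIs of mice that differed widely: over 7 mice with enough nuclei the level ran from 39.1 CPM in old AL 2 to 221 CPM in young AL 2, with a mean of 111 ± 57.9 CPM (SD, n = 7). The other neuron classes came between, at 84.4 CPM in inhibitory, 81.6 CPM in CA3 pyramidal, 73.8 CPM in dentate granule, 72.1 CPM in CA1 pyramidal and 69.4 CPM in subicular or cortical excitatory neuron-like nuclei. Glial classes were lower, at 56.8 CPM in astrocyte-like, 55.3 CPM in oligodendrocyte precursor-like, 47.2 CPM in oligodendrocyte-like and 47.0 CPM in committed oligodendrocyte precursor-like nuclei. The 3 vascular and meningeal classes, fibroblast-like, endothelial cell-like and mural cell-like, lay between 42.0 and 42.8 CPM. Macrophage-like nuclei stood at 80.0 CPM, but 46.7% of the barcodes of that cluster had been marked as doublets, and the level over 8 mice was 72.6 ± 55.7 CPM (SD, n = 8).

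Over mice, the mean level was 91.5 ± 35.2 CPM in inhibitory neuron-like, 88.3 ± 32.0 CPM in CA3-like, 73.4 ± 30.5 CPM in granule neuron-like, 58.9 ± 21.7 CPM in astrocyte-like and 49.9 ± 19.1 CPM in oligodendrocyte-like nuclei (SD, n = 13 each). The spread over mice was thus larger than most steps between classes, so neighbours in the order of mean log2 CPM over mice were compared within each mouse by a two-sided exact sign-flip permutation test over 13 mice, with Benjamini-Hochberg adjustment over 8 neighbouring pairs. That order differs from the pooled one in placing CA1-like and subicular or cortical (6.22 each) above granule neuron-like nuclei (6.11), and precursor-like (5.86) above astrocyte-like nuclei (5.83). In all, 3 of these 8 steps passed. CA3-like nuclei exceeded CA1-like nuclei by 0.19 ± 0.2 on the log2 CPM scale (SD, n = 13; higher in 12 of 13 mice, exact permutation adjusted p = 0.0166). Granule neuron-like nuclei exceeded oligodendrocyte precursor-like nuclei by 0.25 ± 0.26 (11 of 13 mice, exact permutation adjusted p = 0.0195). Astrocyte-like nuclei exceeded oligodendrocyte-like nuclei by 0.24 ± 0.23 (12 of 13 mice, exact permutation adjusted p = 0.0166). Between inhibitory and CA3-like nuclei the difference was 0.04 ± 0.17 (exact permutation adjusted p = 0.595), and between oligodendrocyte-like and microglia-like nuclei it was 0.33 ± 0.75 (exact permutation adjusted p = 0.224). The microglia-like values rest on 87 UMIs and are moved by the prior count: young AL 1 had 0 UMIs and stood at 3.49. In plain CPM the microglia-like mean was 30.9 ± 17.9, against 49.9 ± 19.1 in oligodendrocyte-like nuclei, so this test could not decide that step. Inhibitory and CA3-like nuclei did not differ beyond their spread, nor did CA1-like and subicular, subicular and granule, or precursor-like and astrocyte-like nuclei.

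The share of nuclei with an Igf2bp3 UMI depends on the depth of the nuclei as well as on the level. It was 61.3% in CA3-like nuclei, which had a median of 12418 UMIs, 38.2% in granule neuron-like nuclei (6480 UMIs), 8.74% in oligodendrocyte-like nuclei (1885 UMIs) and 5.16% in microglia-like nuclei (1402 UMIs). The shares did not follow depth alone, since Cajal-Retzius neuron-like nuclei (1944 UMIs) stood at 24.8% and the deeper astrocyte-like nuclei (2700 UMIs) at 15.1%. With nuclei of 2000 UMIs or more thinned to 2000 UMIs and shallower nuclei left out, the shares of CA3-like, granule neuron-like, oligodendrocyte-like and microglia-like nuclei were 16.0%, 14.7%, 7.66% and 9.37%. This kept 2503 of 2527, 35886 of 36140, 4291 of 10010 and 145 of 1628 nuclei, so the last 2 shares describe the deeper nuclei of their classes. Free RNA in droplets can give UMIs to nuclei that do not make a transcript, so the markers of granule neurons, the most numerous class, were read beside Igf2bp3. In microglia-like nuclei Igf2bp3 stood at 49.5% of its granule level and the summed level of the 9 granule markers at 28.2%, with UMIs for 9 of 9 markers, from 3.42% of the granule level for Pdzd2 to 78.4% for Maml2. In oligodendrocyte-like nuclei the same values were 63.9% and 22.9%. They lay closer in astrocyte-like (77.0% and 58.7%), endothelial cell-like (57.3% and 41.5%) and mural cell-like nuclei (56.9% and 53.8%). A sum can be carried by few markers. In astrocyte-like nuclei Maml2 stood at 132% of its granule level, Prox1 at 9.65% and the desmosomal gene Dsp at 4.85%. In oligodendrocyte-like nuclei Prox1 stood at 77.1% and Dsp at 4.62%. Mural cell-like nuclei held Pdzd2 at 210%, Prox1 at 15.5% and Dsp at 22.3%. Prox1 and Dsp were at 18.6% and 19.5% in microglia-like, 17.3% and 23.6% in endothelial cell-like, and 12.6% and 20.9% in fibroblast-like nuclei. Macrophage-like nuclei held them at 36.3% and 22.5%. In Cajal-Retzius neuron-like nuclei, the class with the highest pooled Igf2bp3, Igf2bp3 stood at 164% of its granule level and the marker sum at 71.3%. Prox1 was at 7.87%, Dsp at 61.0% and Pdzd2 at 517% in that class. In CA1-like nuclei Igf2bp3 stood at 97.7% of its granule level and the marker sum at 4.44%. The granule transcription factor Prox1 was at 1.18% of its granule level there. The part of free RNA in the glial, vascular and Cajal-Retzius neuron-like levels was not tested.

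Igf2bp2 stood highest in 2 classes in which Igf2bp3 was among the lowest. Its pooled level was 14.0 CPM in fibroblast-like nuclei (95% exact Poisson interval 9.48 to 19.8, 31 UMIs) and 12.6 CPM in microglia-like nuclei (8.49 to 18.0, 30 UMIs). The intervals of these 2 classes lay above every level in neurons, where it was 0.943 CPM in CA1-like (98 UMIs), 0.633 CPM in CA3-like, 0.564 CPM in inhibitory, 0.484 CPM in granule neuron-like (121 UMIs) and 0.388 CPM in subicular or cortical nuclei. Macrophage-like nuclei stood at 3.83 CPM. Within the fibroblast-like class, cluster 31 held 30.2 CPM (18.9 to 45.8) and cluster 25 held 6.02 CPM. Of the 31 UMIs, 24 came from long-term DR mice (29.5, 29.3 and 15.5 CPM), 6 from acute DR mice (10.8 and 10.8 CPM) and 1 from young AL mice (13.8, 0 and 0 CPM), and the 1 old AL mouse with enough nuclei had 0. The mice held 0 to 14 UMIs each, and no test was made. Igf2bp2 was seen in microglia-like nuclei of 11 of 13 mice, at most 5 UMIs in any mouse, and 1.66% of the nuclei had a UMI. No UMI was found in Cajal-Retzius neuron-like, committed precursor-like, endothelial cell-like or mural cell-like nuclei, which at 3 counts allows levels up to 3.94, 7.04, 2.88 and 3.5 CPM. These intervals and limits cover counting error only.

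Igf2bp1 was near the limit of detection. Its 32 UMIs lay in 31 nuclei, 28 of them in named classes: 13 UMIs in granule neuron-like, 5 in CA1-like, 3 in CA3-like, 3 in inhibitory neuron-like nuclei and 1 each in astrocyte-like, oligodendrocyte precursor-like, fibroblast-like and mural cell-like nuclei. The groups held 11 UMIs in young AL, 3 in old AL, 8 in acute DR and 10 in long-term DR mice. In granule neuron-like nuclei the young AL mice held 2, 4 and 1 UMIs and the old AL mice 0, 0 and 0, with 3 UMIs each in acute and long-term DR mice. These counts are few, and Igf2bp1 passed the filter on low counts in 0 of the 11 classes fitted, so it was not tested in the main fit.

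The genes with a class profile most like that of Igf2bp3, by Pearson's r of log2 CPM over 14 classes among 19291 genes, were Ap3b2 (r = 0.926), a neuronal adaptor subunit, Gpr158 (0.926), an orphan receptor of neurons, Cplane1 (0.922), Camta1 (0.914), a transcription factor, and Tcaf1 (0.907). The classes came from the same libraries and differ in depth, so these values describe likeness only. For Igf2bp2 the nearest profiles were those of Tmem156 (0.994), Gm10552 (0.993), Gm3716 (0.992), Olfml3 (0.991) and Serpina1b (0.991), which rest on few UMIs. The log2 values of Igf2bp2 follow the prior count. In mural cell-like nuclei, which held 0 Igf2bp2 UMIs, acute DR mouse 1 stood at 4.663 from the prior count alone. The r values for Igf2bp2 therefore do not describe a likeness in expression.

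In whole libraries, the mean Igf2bp3 level was highest in young AL and lowest in old AL mice. Its level was 66.1, 163 and 104 CPM in young AL mice, 45.7, 54.5 and 56.6 CPM in old AL mice, 61.2, 64.3 and 76.2 CPM in acute DR mice and 67.7, 86.4, 59.3 and 79.0 CPM in long-term DR mice. All 7 restricted mice lay above all 3 old AL mice, whose low values were part of the reason for choosing the gene. The share of all genes that separate in this way in whole libraries is not given here, so this separation cannot be ranked. Young AL mouse 2 was the highest of the 13. Group means were 111 ± 48.6 CPM (n = 3), 52.2 ± 5.77 CPM (n = 3), 67.2 ± 7.91 CPM (n = 3) and 73.1 ± 12 CPM (n = 4) in that order (SD).

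These library levels were compared between the old groups with two-sided exact permutation tests, added after the values had been seen, with adjustment over 6 tests on Igf2bp2 and Igf2bp3. Those against old AL carry the dependence on the choice given above. Long-term DR exceeded old AL by 0.48 on the log2 scale (exact permutation p = 0.0571, adjusted 0.171) and acute DR exceeded old AL by 0.36 (exact permutation p = 0.1, adjusted 0.2). Both p-values are the smallest that these group sizes allow, so the test could not reach 0.05. Long-term and acute DR differed by 0.11 (exact permutation p = 0.457, adjusted 0.549).

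The Igf2bp3 level moved with the depth of the library. The library with the shallowest nuclei, young AL 2, had the highest level, and the library with the deepest, old AL 1, had the lowest. Over 13 libraries the log2 level and the log2 median of UMIs per nucleus had r = -0.9 and rho = -0.84, and r was -0.75 without those 2 libraries. Over the 10 libraries of old mice r was -0.82 and rho -0.77, and r was -0.65 without old AL 1 and acute DR 3. Both sets hold the old AL libraries used in choosing the gene, so these values are descriptions, with no test. Among 14534 genes with at least 1000 UMIs the median r was -0.13 over the old libraries, and 153 genes (1.05%) had an r as low as that of Igf2bp3 or lower. The group differences below are therefore also given from fits with depth, the median UMIs per nucleus of each mouse in the class, as a term.

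**Figure D2:**
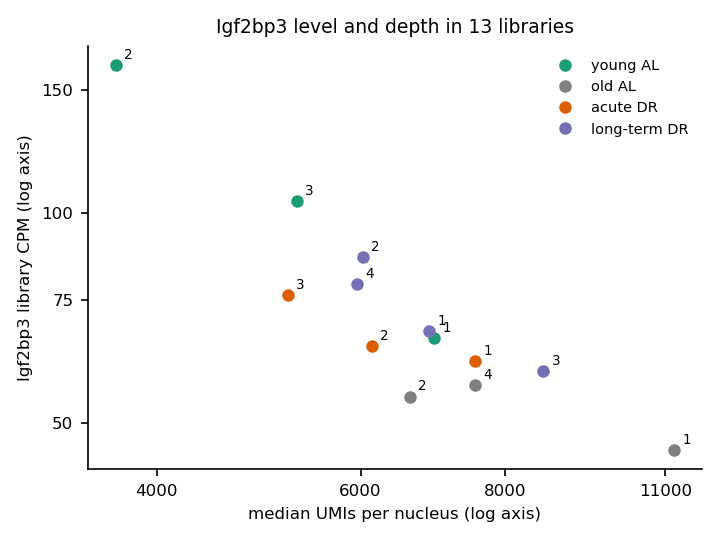
Igf2bp3 level of each library (UMIs per 1000000 UMIs, log axis) against the median UMIs per nucleus of that library (log axis), coloured by group and numbered by mouse within it. Levels fall from young AL 2 (163) at the shallowest median to old AL 1 (45.7) at the deepest, with r = -0.9 over 13 libraries.

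Igf2bp3 varied between mice as well as between classes. In log2 CPM over the 8 classes with a test, the mouse accounted for 61.5% of the sum of squares, the class for 30.8% and the remainder for 7.76%. Among the 10 old mice the shares were 40.6%, 47.0% and 12.3%. No group term was used, so the mouse shares also hold the differences between groups and in depth. Young AL 2, for example, was the highest mouse in each of these classes.

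In the contrast on which the family was chosen, Igf2bp3 was lower in old AL than in young AL mice in 8 of 8 classes. Astrocyte-like nuclei held 58.8, 114 and 78.3 CPM in young AL mice and 34.3, 32.1 and 40.1 CPM in old AL mice. Oligodendrocyte-like nuclei held 43.1, 99.1 and 73.0 CPM in young and 22.3, 33.9 and 35.9 CPM in old AL mice. In both classes every old AL mouse lay below every young AL mouse. The fitted log2 difference, old minus young, was -1.28 in oligodendrocyte-like, -1.24 in astrocyte-like, -1.08 in subicular or cortical, -0.99 in CA1-like, -0.95 in granule neuron-like, -0.88 in inhibitory and precursor-like and -0.8 in CA3-like nuclei. The groups did not overlap, with old AL lower, in 7 of 8 classes, all but oligodendrocyte precursor-like nuclei, beside a share of 7.61% of all 107216 gene and class pairs that separated in that direction. Without young AL 2 the differences ran from -1.0 to -0.37, and with depth as a term they ran from -0.8 to -0.15. Igf2bp2 differed by -0.23 ± 0.54 in CA1-like and 0.61 ± 0.68 in granule neuron-like nuclei (log2, SE), with overlapping groups. All these values are descriptions.

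**Figure D3:**
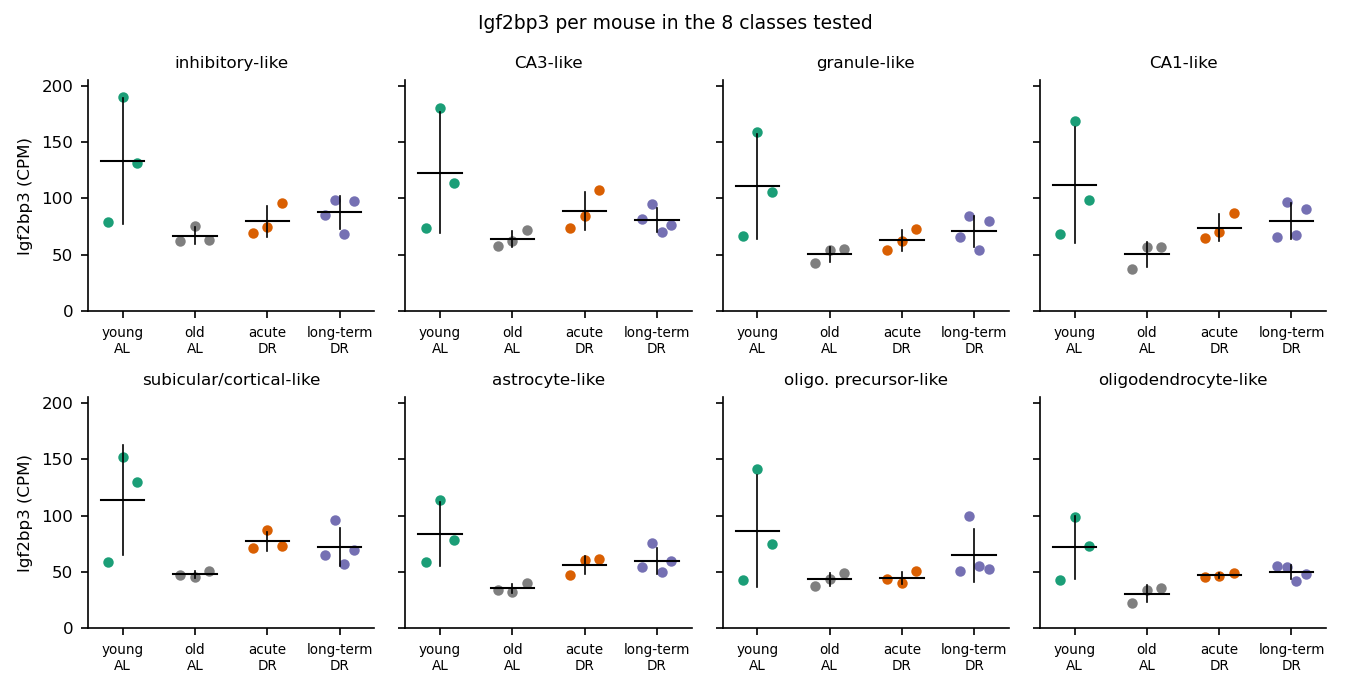
Igf2bp3 level of each mouse (points, UMIs per 1000000 UMIs, axis from 0) in the tested classes by group, with the group mean (horizontal bar) and SD (vertical line). In astrocyte-like nuclei the old AL mice sit between 32.1 and 40.1, below the restricted mice, which sit between 46.9 and 75.7, and the young AL mice, between 58.8 and 114.

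Long-term restriction was compared with old AL by edgeR's quasi-likelihood test on counts summed per mouse and class. Igf2bp3 was higher in long-term DR than in old AL mice in 8 of 8 tested classes. The fitted folds were 0.37 to 0.8 on the log2 scale, and none passed the test. Simulated granule-like counts of this contrast recovered 24% of genes changed 1.5-fold and 52% changed 2-fold, so such changes can be missed in that class. Recovery in the other classes, or for a gene with the counts and spread of Igf2bp3, is not given here. In classes not tested, mean levels lay lower in microglia-like (27.2 against 27.7 CPM) and macrophage-like nuclei (45.9 against 60.8 CPM). They lay higher in endothelial cell-like, mural cell-like, fibroblast-like and Cajal-Retzius neuron-like nuclei. These differences, and the counts of classes without overlap, start from the old AL values used in choosing the gene. Astrocyte-like nuclei held 54.0, 75.7, 50.1 and 59.6 CPM in long-term DR mice against 34.3, 32.1 and 40.1 CPM in old AL mice, without overlap. The log2 difference was 0.8 ± 0.23 (SE; edgeR unadjusted p = 0.00276, Benjamini-Hochberg adjusted p = 0.882). In oligodendrocyte-like nuclei the 4 long-term DR mice held 55.2, 54.5, 42.0 and 48.6 CPM, all above the 3 old AL mice at 22.3 to 35.9 CPM, with a log2 difference of 0.56 ± 0.19 (edgeR unadjusted p = 0.00733, adjusted p = 0.277).

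Among neurons, CA1-like nuclei held 65.9, 96.5, 67.1 and 90.9 CPM in long-term DR mice and 37.1, 57.0 and 56.6 CPM in old AL mice, a log2 difference of 0.63 ± 0.24 (edgeR unadjusted p = 0.0202, adjusted p = 0.958). Here too every long-term DR mouse lay above every old AL mouse. Granule neuron-like nuclei held 65.3, 84.0, 54.0 and 79.9 CPM against 42.5, 53.9 and 54.7 CPM, a log2 difference of 0.49 ± 0.21 (edgeR unadjusted p = 0.0352, adjusted p = 1). Long-term DR mouse 3 lay just below old AL mouse 4 in this class in plain CPM. Inhibitory neuron-like nuclei held 85.0, 98.7, 68.3 and 97.8 CPM against 62.4, 75.3 and 62.8 CPM and overlapped (0.39 ± 0.24, edgeR adjusted p = 1).

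Counted over the family, 0 of 10 gene and class pairs passed an adjusted p under 0.05 in long-term DR against old AL, beside 0.0429% of all pairs tested in either direction. By edgeR 5 of the 10 pairs had an unadjusted p under 0.05, all of them Igf2bp3 in classes of the same mice, beside 4.71% of all pairs. By DESeq2 0 of the 9 pairs with an adjusted p passed and 5 had an unadjusted p under 0.05. Igf2bp3 did not overlap between the groups in 7 of 8 classes by log2 CPM with TMM library scaling, all but inhibitory neurons, and in 5 of 8 by plain CPM, beside 3.51% of all pairs that separated upward. The median log2 difference of all pairs was 0. With depth as a term the Igf2bp3 differences ran from 0.17 to 0.6, with a smallest edgeR adjusted p of 0.627.

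Acute restriction gave values on the same side as long-term restriction in the whole-count fit. The 2 contrasts share the 3 old AL mice, so likeness between them is not independent. Astrocyte-like nuclei held 46.9, 60.6 and 61.6 CPM in acute DR mice, all above the old AL mice, with a log2 difference of 0.68 ± 0.25 (edgeR unadjusted p = 0.0129, adjusted p = 0.593). Oligodendrocyte-like nuclei held 45.7, 46.1 and 49.5 CPM, also all above old AL (0.46 ± 0.21, edgeR unadjusted p = 0.0332, adjusted p = 0.375). Subicular or cortical neuron-like nuclei held 71.2, 87.0 and 73.2 CPM against 47.5, 45.3 and 51.1 CPM, again without overlap (0.66 ± 0.26, edgeR unadjusted p = 0.0194, adjusted p = 1). CA1-like nuclei held 64.4, 70.5 and 87.4 CPM (0.54 ± 0.25, edgeR adjusted p = 1). Oligodendrocyte precursor-like nuclei were the class with the smallest difference, at 44.1, 40.2 and 50.6 CPM against 37.7, 43.5 and 48.9 CPM, and the groups overlapped (0.07 ± 0.31, edgeR adjusted p = 0.998).

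In acute DR against old AL, 0 of 10 pairs of the family passed by edgeR, beside 0.207% of all pairs, and 0 of the 9 with an adjusted p by DESeq2. By each tool 4 of the 10 had an unadjusted p under 0.05, of which 3 were Igf2bp3 in edgeR, beside 4.91% of all pairs by edgeR. Igf2bp3 did not overlap, with acute DR higher, in 6 of 8 classes by log2 CPM and in 5 of 8 by plain CPM, beside 5.70% of all pairs. The direction of the acute difference changed in 3 classes with depth as a term: it ran from -0.26 to 0.4 and was above 0 in 5 of 8 classes, with granule neuron-like, inhibitory and precursor-like nuclei below 0.

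**Figure D4:**
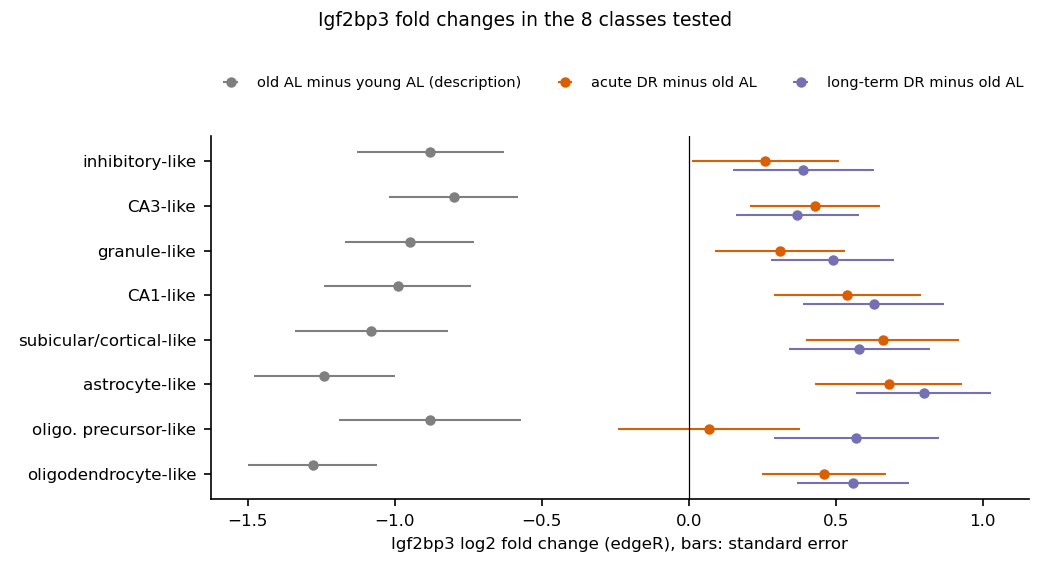
Log2 difference of Igf2bp3 with its standard error in each of 8 classes for ageing (old AL minus young AL, drawn as a description), long-term DR minus old AL and acute DR minus old AL. Ageing values lie between -1.28 and -0.8, long-term values between 0.37 and 0.8 and acute values between 0.07 and 0.68.

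No Igf2bp3 difference between long-term and acute restriction passed the test. The log2 difference ran from -0.08 in subicular or cortical to 0.49 ± 0.3 in oligodendrocyte precursor-like nuclei (edgeR unadjusted p = 0.114, adjusted p = 0.998). Precursor-like nuclei held 50.8, 99.7, 55.7 and 52.9 CPM in long-term DR mice, all above the acute DR mice at 40.2 to 50.6 CPM, and were the 1 class of 8 without overlap, beside 2.63% of all pairs that separated upward. Without long-term DR mouse 2, the high one, no class differed by more than 0.25. By edgeR 0 of 10 pairs of the family passed, beside 0.0103% of all pairs. In that fit 1 had an unadjusted p under 0.05, beside 2.94% of all pairs, and by DESeq2 0 did. With depth as a term the Igf2bp3 differences ran from 0.03 to 0.63 and were above 0 in 8 of 8 classes. By edgeR 3 of these 8 had an unadjusted p under 0.05, against 0 without that term, and the smallest adjusted p was 0.999. The share of all pairs with such a p in the fit with depth is not given here.

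Granule neuron-like nuclei, the most numerous class, consisted of 3 clusters whose shares changed with group. Cluster 0, led by Dsp and Lct, held 58.0%, 81.1% and 62.5% of the granule neuron-like nuclei of young AL mice, 17.1%, 15.0% and 9.4% in old AL, 26.3%, 31.5% and 37.1% in acute DR and 39.1%, 38.0%, 8.88% and 29.8% in long-term DR mice. Igf2bp3 differed in the same direction within each cluster. The log2 ratio of group means, long-term DR to old AL, was 0.5 in cluster 0, 0.49 in cluster 1 and 0.46 in cluster 2, led by Lgr6 and Trhr, and 0.49 over the class. The acute DR ratio was 0.25, 0.31 and 0.29, and 0.32 over the class.

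Within cluster 0, Igf2bp3 stood at 66.8, 85.6, 76.5 and 89.4 CPM in long-term DR mice, all above old AL mice at 43.7, 62.3 and 62.3 CPM. In clusters 1 and 2 the long-term DR and old AL mice overlapped. The range of depth was also narrowed, keeping granule neuron-like nuclei with 4000 to 8000 UMIs. Within that window the median still ran from 4812 UMIs in young AL 2 to 7108 in old AL 1, so depth was not equal between mice. These nuclei held 73.9, 148 and 107 CPM in young AL, 43.0, 57.8 and 61.4 CPM in old AL, 56.4, 65.1 and 76.6 CPM in acute DR and 68.6, 87.2, 60.1 and 85.3 CPM in long-term DR mice, the first old AL value from 13 UMIs in 44 nuclei. The log2 ratio to old AL in these nuclei was 0.48 for long-term DR and 0.29 for acute DR, against 0.49 and 0.32 in all granule neuron-like nuclei, while the fit with depth as a term gave -0.07 for acute DR.

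**Figure D5:**
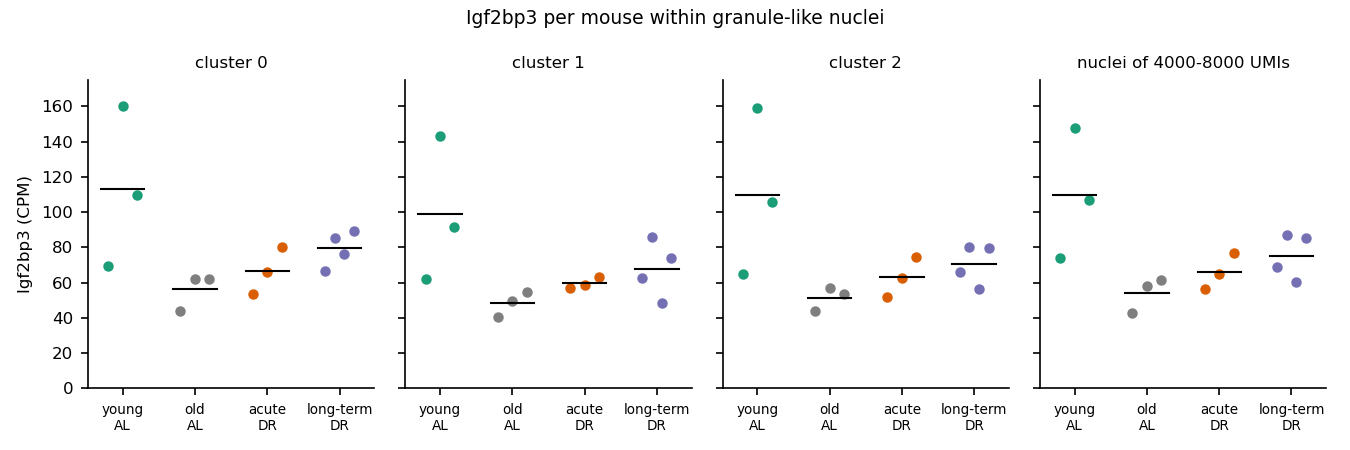
Igf2bp3 level of each mouse (UMIs per 1000000 UMIs, axis from 0) in granule neuron-like clusters 0, 1 and 2 and in granule neuron-like nuclei of 4000 to 8000 UMIs, by group, with the group mean as a horizontal bar. In cluster 0 the long-term DR mice (66.8 to 89.4) sit above the old AL mice (43.7 to 62.3).

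Igf2bp2 passed the filter on low counts, and was tested in the main fit, in CA1-like and granule neuron-like nuclei only. In CA1-like nuclei it stood at 0.951, 0.888 and 1.65 CPM in old AL mice, 0.242, 0.393 and 0.863 CPM in acute DR mice, 0.891, 1.55, 0.796 and 1.34 CPM in long-term DR mice and 1.09, 0.665 and 2.3 CPM in young AL mice. The 3 acute DR mice lay below the 3 old AL mice, and 6.61% of all pairs separated downward in this contrast. The log2 difference, acute DR minus old AL, was -1.38 ± 0.59 (edgeR unadjusted p = 0.0362, adjusted p = 1). Long-term minus acute DR was 1.3 ± 0.58 (edgeR unadjusted p = 0.0412, adjusted p = 1), and long-term DR minus old AL was -0.08 ± 0.52 (edgeR adjusted p = 0.998).

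In granule neuron-like nuclei Igf2bp2 stood at 0, 0.547 and 0.42 CPM in acute DR mice and 0.508, 0.381 and 0.968 CPM in old AL mice, with overlap (-0.92 ± 0.7, edgeR adjusted p = 0.999). Over whole libraries it stood at 0.343, 0.539 and 0.753 CPM in acute DR, 0.881, 0.576 and 1.19 CPM in old AL and 0.83, 1.08, 0.83 and 1.18 CPM in long-term DR mice. Long-term DR exceeded acute DR there by 0.9 on the log2 scale without overlap (two-sided exact permutation p = 0.0571, the smallest possible, adjusted 0.171). The share of all genes that separate so in whole libraries is not given here. Acute DR minus old AL was -0.7 for Igf2bp2 in whole libraries (exact permutation p = 0.2, adjusted 0.3). For acute DR minus old AL, Igf2bp2 stood at -1.4 in CA1-like and -0.93 in granule neuron-like nuclei with depth as a term.

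Malsu1, a gene of mitochondrial ribosome assembly on the plus strand at chr6:49073795-49086751, overlaps the 3′ end of Igf2bp3. Whether the counting used strand is not given in the sources used here, so the reads of the overlap cannot be assigned with certainty. Malsu1 stood at 30.6 to 42.8 CPM over the 13 libraries. Its log2 differences were 0.02 to 0.36 for long-term DR and -0.19 to 0.17 for acute DR over the 8 classes, and by edgeR 0 passed and 0 had an unadjusted p under 0.05. In the contrast of the choice, Malsu1 stood at 42.8, 38.0 and 35.1 CPM in young AL libraries and 34.6, 32.2 and 30.6 CPM in old AL libraries. In whole libraries both genes were thus lower in old AL without overlap, and the share of all genes that separate so is not given here. Within classes Malsu1 separated, with old AL lower, in CA1-like and CA3-like nuclei only, beside 7.61% of all pairs. Igf2bp3 separated in all tested classes but oligodendrocyte precursor-like nuclei. The log2 differences of Malsu1 with age ran from -0.46 to 0.24 over the 8 classes, where those of Igf2bp3 ran from -1.28 to -0.8. By edgeR 0 of those of Malsu1 passed (smallest adjusted p = 0.278) and 1 had an unadjusted p under 0.05. The part of shared reads in these values was not tested. The pseudogene Gm18010 also lies within Igf2bp3, and Mir3063 and the antisense gene Gm29202 overlap Igf2bp1.

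Genes that work with the family were read as 6 lists in the same fits, as counts of genes called in a class. Of the m6A writers, erasers and readers other than the family, 18 of 19 genes were tested, of the protein partners in messenger ribonucleoprotein particles 24 of 24, and of the Lin28, let-7 and Hmga genes 12 of 16. Of transcripts described as bound by IGF2BP proteins 21 of 24 were tested, of growth genes known to fall after birth 16 of 20, and of insulin and IGF receptors and binding proteins 18 of 22. Over the 6 lists, 804 pairs of gene and class were tested.

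In long-term DR against old AL, 1 of the 804 pairs (0.124%) was called, beside 0.0429% of all pairs. Ccnd1, which encodes cyclin D1 and belongs to the bound transcripts, rose in oligodendrocyte precursor-like nuclei by 0.95 ± 0.17 on the log2 scale (edgeR adjusted p = 0.0216), and the groups did not overlap. With depth as a term the difference was 0.92 (edgeR adjusted p = 0.0549). The call held in 8 of 13 fits that each left out 1 mouse, and was lost without long-term DR mouse 2 or 4 or any old AL mouse, with adjusted p up to 0.162 (without old AL mouse 2). In acute DR against old AL 2 pairs (0.249%) were called, beside 0.207% of all pairs, both in oligodendrocyte-like nuclei. Stau2, a double-stranded RNA-binding protein of dendritic transport granules and a listed partner, fell by 0.72 ± 0.19 (log2 scale, edgeR adjusted p = 0.0465). Fscn1, an actin-bundling protein among the bound transcripts, fell by 0.82 ± 0.17 (edgeR adjusted p = 0.00753). With depth as a term Fscn1 stood at -0.77 and Stau2 at -0.5 (edgeR adjusted p = 0.184 and 0.725), so neither call held. By DESeq2 the adjusted p was 0.0493 for Fscn1 and 0.233 for Stau2, and with a replicate block in edgeR 0.0152 and 0.0529, so Stau2 was lost under both. Over left-out mice Fscn1 was called in 10 and Stau2 in 5 of 13 fits. Neither was called without acute DR mouse 3, old AL mouse 2 or old AL mouse 4. In long-term against acute DR no pair of the 6 lists was called. The list medians in the restriction contrasts lay between -0.06 and 0.03, where the median over all pairs was 0.

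In old AL against young AL, 0.868% of all pairs were called higher and 0.641% lower. Of the 153 pairs of bound transcripts 5 were called higher and 1 lower. Cdk6, a cell-cycle kinase, rose in granule neuron-like nuclei by 0.8 ± 0.1 (edgeR adjusted p = 0.00259). Igf1r, the IGF1 receptor, rose in granule neuron-like nuclei by 0.69 ± 0.13 (edgeR adjusted p = 0.0248) and in precursor-like nuclei by 0.62 ± 0.15 (edgeR adjusted p = 0.046). Ccnd1 fell in precursor-like nuclei by 0.91 ± 0.19 (edgeR adjusted p = 0.016), the class in which it rose under long-term restriction. The 2 contrasts share the old AL mice. Tcf4 rose in oligodendrocyte-like nuclei and Foxo1 in granule neuron-like nuclei (0.41 ± 0.13 and 0.42 ± 0.1, edgeR adjusted p = 0.0466 and 0.0475).

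Of the 123 pairs of insulin and IGF receptors and binding proteins, 5 were called higher with age and 0 lower. They were Igf1r in both classes named above and, in granule neuron-like nuclei, Foxo1, the insulin receptor Insr (0.47 ± 0.1, edgeR adjusted p = 0.0357) and the kinase Mtor (0.46 ± 0.1, edgeR adjusted p = 0.0414). Of the 85 pairs of the Lin28, let-7 and Hmga list, 3 were called higher and 0 lower, and all were enzymes of microRNA processing. Drosha rose in oligodendrocyte-like (0.99 ± 0.25, edgeR adjusted p = 0.0139) and granule neuron-like nuclei (0.41 ± 0.09, edgeR adjusted p = 0.0433), and Dicer1 rose in granule neuron-like nuclei (0.45 ± 0.1, edgeR adjusted p = 0.0414). Of the m6A genes, the eraser Fto rose in granule neuron-like nuclei (0.53 ± 0.11, edgeR adjusted p = 0.0331), and Hnrnpa2b1 fell by 0.86 ± 0.21 in microglia-like nuclei (edgeR adjusted p = 0.0325), where its groups overlapped. None of the partners or of the growth genes was called by edgeR with age. List medians were 0.18 for the Lin28 and insulin lists, 0.12 for the bound transcripts and -0.11 for the m6A genes, where the median over all pairs was -0.02. Of the 13 calls with age, 8 were in granule neuron-like nuclei, whose cluster shares differ between these groups as given above, and list genes were not read within clusters. Over all 16608 genes tested in that class, 400 were called higher and 134 lower. The 13 calls moved with depth, with single mice and in part with the tool. By DESeq2 10 of the 13 were called, without Drosha in oligodendrocyte-like nuclei, Hnrnpa2b1 and Tcf4 (DESeq2 adjusted p = 0.0759, 0.0985 and 0.155). With depth as a term each of the 13 kept its sign and 0 were called, and without young AL 2 only Cdk6 was called (edgeR adjusted p = 0.016). Without old AL 2 or old AL 4, 2 pairs of the lists were called. Cdk6 was called in 13 of 13 fits that each left out 1 mouse, from 0.74 to 0.87, and with depth as a term it stood at 0.68 (edgeR adjusted p = 0.259).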

How the data were processed

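Nuclei were isolated by detergent lysis, sorted after Hoechst staining and made into 10x Genomics 3′ libraries, per the labels' protocols. The deposited matrices hold UMI counts for each gene in each barcode. Cell Ranger 4.0.0 and the build mm10 are named in the submitters' processing notes. Counting of intronic reads, use of strand, correction for free RNA and removal of doublets are not given in the sources used here.

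From the deposited counts, 105427 of 105759 barcodes were kept, those with 500 genes or more and mitochondrial UMIs of 5% or less, and 7386 of them were marked as doublets by Scrublet score, 0.8% per 1000 barcodes. All kept barcodes were clustered together, and the marked doublets were removed after clustering, before any level or sum. Clustering used 2000 variable genes, without the 3 members, with 30 principal components, 20 neighbours and Leiden resolution 1 (Python 3.11.15, scanpy 1.11.5, leidenalg 0.10.2, pandas 2.3.3, scipy 1.17.1). A cluster was named where at least 3 markers of a list were raised with a mean log2 fold of at least 1. No name was given to clusters with 50% doublets or more, to those whose 10 leading genes went against the name, or, by a rule added after the data were seen, to those led by mitochondrial genes (at least 5 of 10).

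UMI counts were summed per mouse and class, with at least 20 nuclei per sum and 2 mice in each group, which 11 classes met. Sums were tested with edgeR 4.0.16 (TMM, quasi-likelihood, all 4 groups in 1 fit, R 4.3.3), with DESeq2 1.42.0 as an alternative, after checks on simulated counts. A class's p-values were adjusted over its tested genes. A call is an adjusted p under 0.05. Log2 CPM used a prior count of 2. After edgeR's filter on low counts Igf2bp3 was tested in 8 classes, Igf2bp2 in 2 and Igf2bp1 in 0. Each mouse is a separate animal.

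The 3 members were named in all results. From the lists, genes called in a contrast were named, and the 5 genes with the most like profile for each member. The members, lists and tests were chosen with earlier results of these data known. The order of classes was tested for Igf2bp3 only, since log2 values of Igf2bp1 and Igf2bp2 at such counts follow the prior count. Those of Igf2bp3 in microglia-like nuclei do so in part.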

Additional observations from a re-analysis of the deposited data

Results flagged for a closer look

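The comparisons above used the named classes. Outside them, in the 14 unnamed clusters, Igf2bp3 gave 11366 UMIs, Igf2bp2 168 and Igf2bp1 4, all above the limit of 3 counts that a count of 0 allows. Igf2bp3 stood between 53.5 and 106 CPM in these clusters, the last from a cluster of 8 nuclei. In the clusters with these lowest and highest values, 85.34% and 68.0% of barcodes had been marked as doublets. Igf2bp2 was at 2.18 CPM in cluster 18 (1.41 to 3.22, 95% exact Poisson interval), which had too few raised markers for a name. It was at 1.97 CPM in cluster 14, which also held the 4 UMIs of Igf2bp1. The small cluster 20 (176 nuclei) stood at 5.33 CPM from 4 UMIs (1.45 to 13.6), and 85.75% of its barcodes had been marked as doublets. Long-term DR was the one group of 4 mice and was examined for single mice far from the others. In plain CPM, over 18 sets of values of Igf2bp2 and Igf2bp3 by class, long-term DR mouse 2 stood apart for Igf2bp3 in oligodendrocyte precursor-like nuclei (99.7 CPM, the others 50.8 to 55.7 CPM) and in microglia-like nuclei (55.1 CPM, the others 14.3 to 19.8 CPM). Chance marks about 1 in 20 such groups. The criterion also marked mouse 3 for Igf2bp2 in oligodendrocyte precursor-like nuclei (1.33 CPM, the others at 0), which is 1 UMI and would be marked by any single count. In 13 further sets, log2 CPM in the tested classes and whole-library CPM, no mouse stood apart.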

How the results depend on the processing

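The count of Igf2bp genes called in a class stayed at 0 in each restriction contrast under every alternative run: DESeq2, no filter on low counts, doublets kept, only the groups of the contrast, each mouse left out, a replicate block, a term for replicate number 1 and the median UMIs per nucleus as a covariate. Igf2bp3 stayed lower in old AL than in young AL in 8 of 8 classes under each (11 of 11 without the filter). The alternatives for counts of classes without overlap, for list genes with depth or left-out mice, for granule clusters and for whole libraries were chosen after seeing the data. Classes without overlap ranged over left-out mice from 7 to 8 for long-term DR and from 6 to 7 for acute DR. They ranged from 7 to 8 for ageing and from 1 to 2 for long-term minus acute DR. Leaving a mouse out of the same values cannot create overlap, so these counts could only stay or rise and do not measure stability. By plain CPM the counts for long-term DR and acute DR against old AL were lower, as given above.

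Some small differences changed sign. With depth as a covariate Igf2bp3, acute DR minus old AL, became -0.07 in granule neuron-like, -0.03 in inhibitory neuron-like and -0.26 in oligodendrocyte precursor-like nuclei, and over left-out mice the last ranged from -0.02 (without acute DR mouse 3) to 0.16. Long-term minus acute DR became 0.03 in CA3-like nuclei and 0.04 in subicular or cortical nuclei with depth as a covariate, and over left-out mice the CA3-like value ranged from -0.17 to 0.07 (without acute DR mouse 3). Igf2bp2, long-term DR minus old AL, ranged over left-out mice from -0.31 to 0.24 in CA1-like nuclei (0.03 without long-term DR mouse 1 or 3, 0.24 without old AL mouse 4) and from -0.52 to 0.36 in granule neuron-like nuclei (0.11 without long-term DR mouse 1, 0.36 without old AL mouse 4). The Igf2bp2 ranges cover only the fits in which the gene passed the filter on low counts. The cause of the sign changes was not tested.

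The labels do not say what a replicate number marks, and the numbers were not taken to pair the mice, since not every same-numbered pair moved together. Of 16 same-numbered pairs, 11 had correlated deviations above 0.1 (range -0.13 to 0.78), the 6 pairs of number 1 all did so (0.37 to 0.78), and 5 of 13 libraries correlated best with their own number. With the replicate block 0 Igf2bp pairs were called, and the Igf2bp3 differences were 0.38 to 0.75 for long-term DR and 0.14 to 0.7 for acute DR (smallest edgeR adjusted p = 0.135 and 0.269). List genes called in a class went from 1 to 2 for long-term DR, from 2 to 1 for acute DR and from 13 to 33 for ageing with the block, and to 2, 4 and 40 with the term for number 1. With depth as a covariate they went to 0, 0 and 1, and over left-out mice they ranged from 0 to 1 for long-term DR, from 0 to 3 for acute DR and from 1 (without young AL 2) to 20 for ageing. List genes called in long-term minus acute DR stayed at 0 in each. Over all genes, calls moved from 46 to between 5 and 242 for long-term DR, from 222 to between 46 and 486 for acute DR, from 11 to between 5 and 70 for long-term minus acute DR, and from 1618 to between 48 (depth covariate) and 7000 (number 1 term) for ageing. After the filter on low counts, Igf2bp1 was tested in no class and Igf2bp2 only in CA1-like and granule neuron-like nuclei. Without that filter further classes were fitted on few UMIs, and no Igf2bp gene was called in a restriction contrast.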
